A study of Mus musculus with 22 samples.

Results

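The molecular chaperones of the cytosol and the mitochondria were followed in pancreatic β-cells, the insulin-secreting cells of the islet, of fasted and refed mice. The set was chosen by gene symbol and count. It takes the Hsp70, Hsp90, Hsp60/Hsp10, Hsp110 and small heat shock protein genes, the J-domain genes (Dnaja, Dnajb, Dnajc), the subunits of the TRiC chaperonin (Tcp1 and the Cct genes), the Bag genes, the heat shock factors Hsf1 and Hsf2, and 7 further partner genes: Stip1, St13, Ahsa1, Chordc1, Fkbp4, Cdc37 and Trap1. Of 92 symbols that matched, 7 genes of the endoplasmic reticulum were set aside and 9 did not reach 10 counts in at least 5 libraries, which left 76 of the 52327 genes in the table. The least expressed gene kept was Hspb1, with 10 or more counts in 19 of 22 libraries and 563 counts in all. The nearest gene left out was Dnajb13, with 10 or more counts in 2 libraries and 113 counts in all. The other 8 left out (Dnajb7, Dnajb8, Dnajc22, Hspa1l, Hspb2, Hspb3, Hspb7 and Hspb9) held between 0 and 72 counts over all libraries.

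The β-cells were isolated by fluorescence-activated sorting from 22 male mice, 3 months old and of a mixed background, 1 library per mouse. Every mouse, controls included, had the genotype GluDTR+, SstDTR htz, PpyDTR htz, in which diphtheria toxin (DT) receptor alleles make the glucagon, somatostatin and pancreatic polypeptide cells sensitive to the toxin. The design text describes the DT mice as having islets with β-cells only and the controls as having intact islets, and tissue was taken 1 month after the ablation. The 4 groups were control mice fasted for 8 h (n = 5), DT mice fasted for 8 h (n = 6), control mice fasted for 8 h and refed for 2 h (n = 5), and DT mice fasted for 8 h and refed for 2 h (n = 6). The labels do not state whether controls received an injection, and no refed mouse was also measured fasted. Each p-value therefore concerns the spread between different mice.

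Chaperones bind unfolded or partly folded proteins and use ATP hydrolysis to release them in a state that can fold. Hsp70 proteins work with J-domain proteins, which deliver clients and start ATP hydrolysis, and with nucleotide exchange factors, which release ADP and client. Many clients then pass to Hsp90, or to the barrel-shaped chaperonins TRiC in the cytosol and Hsp60/Hsp10 in mitochondria. When unfolded protein accumulates, heat shock factor 1 binds heat shock elements in promoters and many of these genes are transcribed together. The β-cell makes very large amounts of proinsulin, whose own folding takes place in the endoplasmic reticulum.

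Libraries held 16584117 to 24988880 counted reads. Levels are given as CPM, the reads of a gene per 1000000 reads of the TMM-scaled library, and differences as log2 fold changes ± standard error from edgeR's quasi-likelihood test with Benjamini-Hochberg adjustment over 14064 tested genes. A gene was called when its adjusted p was below 0.05. As a check of the β-cell label, the insulin genes Ins1 and Ins2 took 40.3% to 51.1% of the counts in 21 libraries. Refed DT mouse 13 stood apart, with 69.4% of its counts on the insulin genes and 0.313% on the 76 chaperone genes, so counts, class medians and the values that its omission changes most are also given without it. Refed DT mouse 20, which had the lowest sum of acinar markers (66.9 CPM), was left out together with mouse 13 in 1 alternative. Summed over 4 α-cell markers, Gcg included, the median was 77.3 CPM (range 1.51 to 242) in fasted and 158 CPM (56.1 to 173) in refed control mice. It was 0.463 CPM (0.212 to 1.09) in fasted and 0.534 CPM (0.0488 to 26.1) in refed DT mice. Control and DT mice thus did not overlap within either feeding state. The highest refed DT mouse lay above the lowest fasted control mouse. Ppy, the γ-cell hormone gene, was still counted in DT mice, with medians of 3.45 CPM fasted and 13.5 CPM refed beside 10.6 and 30.9 CPM in control mice. Sorted cells were measured in bulk, so fewer cells of a type and less RNA per cell cannot be told apart.

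Refeeding was accompanied by higher chaperone transcript levels, in control and in DT mice. Summed over the 76 genes, fasted control mice lay between 3532 and 3946 CPM (median 3704) and refed control mice between 6388 and 9419 CPM (median 7499). Fasted DT mice lay between 3646 and 3992 CPM (median 3726) and refed DT mice between 5518 and 8771 CPM (median 6345). Every refed mouse was above every fasted mouse in this TMM-scaled sum. As a plain share of counts, the 76 genes took 0.339% to 0.418% in fasted mice and 0.588% to 0.962% in refed mice other than mouse 13, whose 0.313% was below every fasted library.

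In control mice 40 of the 76 genes were called between refed and fasted animals, or 52.6%, against 23.3% of all tested genes. Of these, 36 were higher after refeeding, against a background of 10.9%, and 4 were lower, against 12.3%. In DT mice 37 were called, or 48.7%, against 24.4% of all tested genes. There, 31 were higher, with 10.8% of all genes higher, and 6 were lower, with 13.5% of all genes lower. The median log2 fold change over the 76 genes was 0.40 in control mice and 0.30 in DT mice, beside medians over all tested genes of -0.04 and -0.06. Without refed DT mouse 13, 47 genes were called in the DT mice (42 higher, 5 lower). In the control mice 47 were then called (43 higher, 4 lower). All groups share 1 estimate of the spread in the fit. Calls over all tested genes without mouse 13 alone are not given here, so these rises are not a result about chaperone genes. Without mice 13 and 20, calls over all tested genes rose as well. They went from 3272 to 4325 in control mice and from 3426 to 4197 in DT mice. Of the 76 genes, 48 and 45 were then called.

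The functional classes differed in how many of their genes were called. Both Hsp90 genes, 7 of 8 TRiC subunits, 6 of 9 nucleotide exchange factors and 6 of 6 Hsp90 co-chaperones were higher after refeeding in control mice. In DT mice the counts were 2 of 2, 7 of 8, 6 of 9 and 5 of 6. Of 7 Hsp70 genes, 1 was higher in each comparison, and of 18 class C J-domain genes 5 were higher and 3 lower in control mice and 1 was higher and 5 lower in DT mice. Neither heat shock factor was called. The class medians in control mice ran from 1.76 (Hsp90) and 1.29 (Hsp90 co-chaperones) down to -0.17 (class C J-domain proteins) and -0.37 (Hsp70). Without mouse 13 all 8 TRiC subunits were called higher in both treatments, as were all 6 co-chaperones. Of the 9 mitochondrial genes, 7 were then called higher in control and 8 in DT mice, and the class C genes of DT mice were 4 higher and 4 lower. The class medians in DT mice were then 1.38 (Hsp90), 1.21 (co-chaperones), 0.88 (nucleotide exchange factors) and 0.76 (TRiC).

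**Figure D1:**
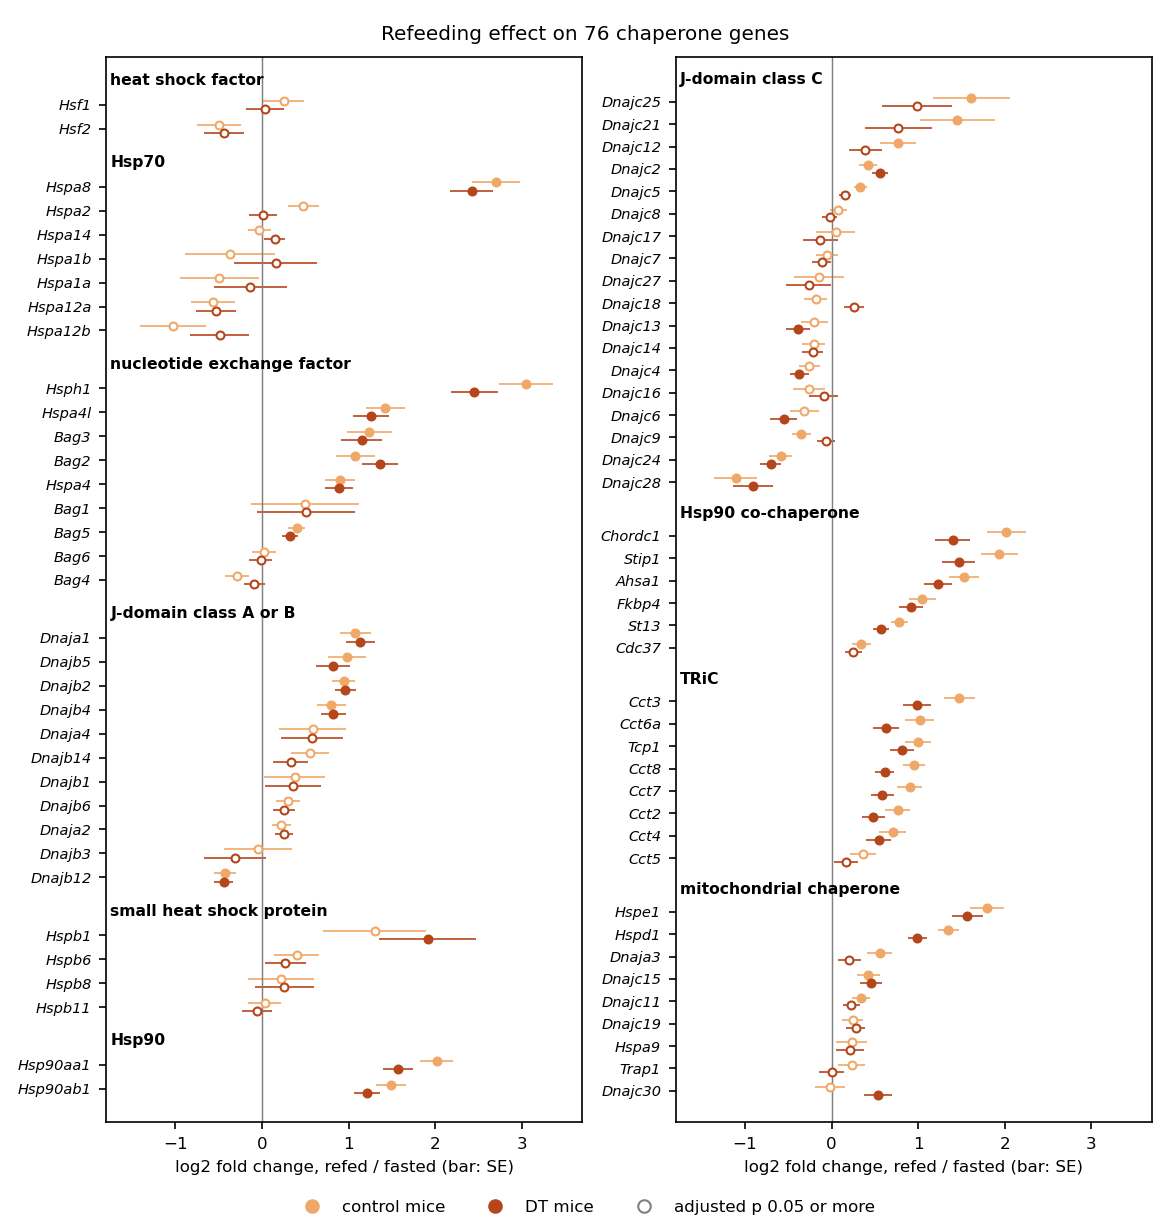
Log2 fold change of refed over fasted mice for each of the 76 genes, grouped by the role of the product, in control mice (light orange) and DT mice (dark red); bars are standard errors and open symbols have an adjusted p of 0.05 or more. Hsph1 and Hspa8 lie farthest to the right, at 3.05 and 2.702 in control mice, and Dnajc28 farthest to the left, at -1.10.

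Promoter windows show how the classical heat shock element is spread over the set. The RefSeq windows of build GRCm38.p6 run from 250 bases before to 50 bases after an annotated start site, and 62 of the 76 genes had 1 or more, 82 windows in all. Not in the table were Bag4, Cct4, Dnajc2, Dnajc5, Dnajc11, Dnajc12, Dnajc18, Dnajc30, Hsf1, Hsp90aa1, Hsp90ab1, Hspa8, Hspa9 and St13. Each window was searched for 2 inverted units (GAANNTTC or TTCNNGAA) and for 3 units in a row (GAANNTTCNNGAA or TTCNNGAANNTTC). The patterns of each pair cover both strands, and a 3-unit match always contains overlapping 2-unit matches.

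A 3-unit match occurred in 0.603% of all 32851 windows in the table and in 8.54% of the members' windows, at the genes Hsph1, Chordc1, Hspe1, Hspd1 and Dnajb6. At Hsph1 and Dnajb6 the same match lay in 2 overlapping windows and was counted in each. Counted by gene, the shares were 0.662% of all genes with a window and 8.06% of the 62 members with one. A 2-unit match occurred in 15.1% of all windows and in 26.8% of the members' windows, at 20 genes. The sequences below show the longest runs of units, in capitals, for 3 genes that were higher after refeeding, and the element of the stress-inducible Hsp70 pair, which was not called. Hspe1 is at chr1:55088018-55088117 on the plus strand, Chordc1 at chr9:18292207-18292286 on the plus strand, Hsph1 at chr5:149636279-149636308 on the minus strand, and Hspa1a at chr17:34972187-34972286 on the minus strand. The same 100 bases lie at Hspa1b, at chr17:34959269-34959368 on the minus strand.
Hspe1: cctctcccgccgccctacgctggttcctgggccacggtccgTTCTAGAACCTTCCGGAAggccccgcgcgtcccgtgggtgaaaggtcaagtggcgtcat
Chordc1: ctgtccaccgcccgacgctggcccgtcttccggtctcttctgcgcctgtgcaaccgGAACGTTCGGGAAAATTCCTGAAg
Hsph1: gctgcagaTTCTGGAAAGTTCtcctcagta
Hspa1a: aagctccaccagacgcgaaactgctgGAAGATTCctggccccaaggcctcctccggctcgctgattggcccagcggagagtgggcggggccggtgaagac

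The Hspe1 run lies from 89 to 72 bases before the Hspe1 start site. It is the same stretch of chromosome 1 that lies from 144 to 127 bases before an annotated Hspd1 start site. Hspd1 had 2 windows, and the window of its other start site held no match. The 2 genes are transcribed in opposite directions. The 300-base windows of Hspa1a and Hspa1b are identical at 296 bases, and each holds a single 2-unit match from 104 to 97 bases before the start. A match describes letters in a window and not a bound factor. Of the 5 genes with a 3-unit match, 4 were higher after refeeding in both treatments and Dnajb6 was called in neither, beside 23 (control) and 20 (DT) of the 57 genes with windows but no 3-unit match. Of the 20 genes with a 2-unit match, 11 were higher in each treatment, beside 16 (control) and 13 (DT) of the 42 without one.

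**Figure D2:**
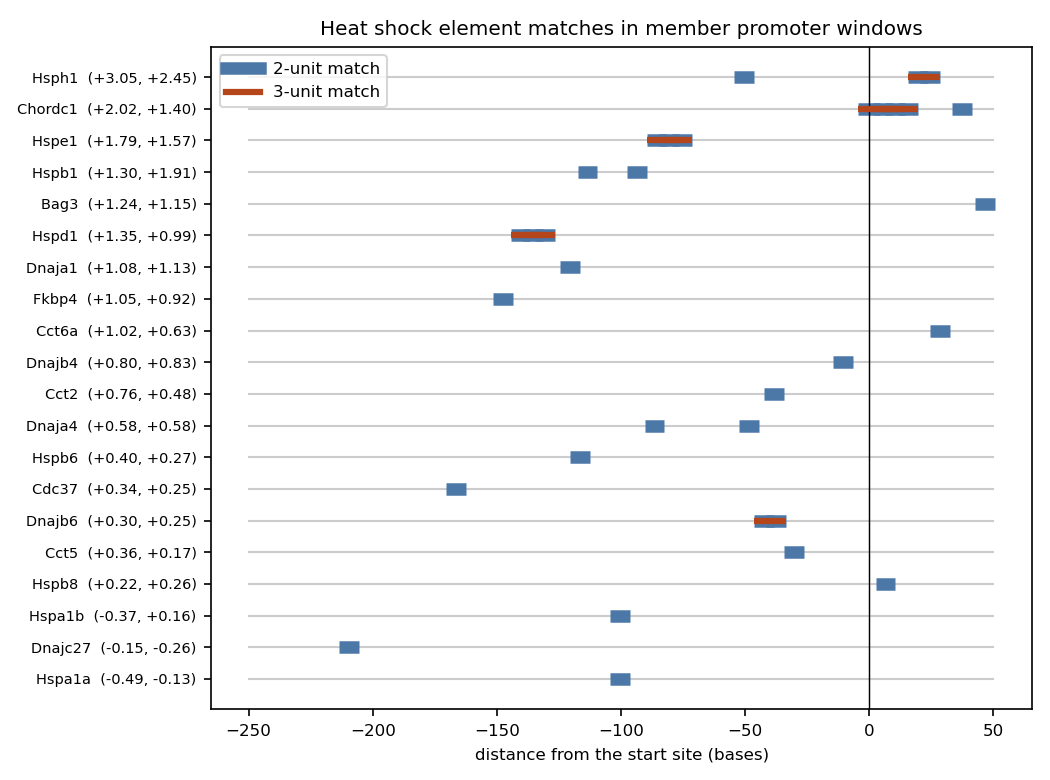
Positions of heat shock element matches in the promoter windows of the 20 genes that hold one, as distance in bases from the annotated start site; blue bars are 2-unit and red bars 3-unit matches. The numbers in brackets are the log2 fold changes after refeeding in control and DT mice, and where a gene has several windows the one with the lowest coordinate is drawn. The 3-unit matches of Hspe1 and Hspd1 are 1 shared stretch.

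Hsp90 is the ATP-dependent chaperone of kinases, steroid receptors and other signalling proteins, made in a constitutive form (Hsp90ab1) and a more inducible form (Hsp90aa1). In fasted control mice Hsp90aa1 stood at 109, 113, 103, 109 and 92.9 CPM, and in refed control mice at 441, 498, 428, 381 and 388 CPM. In fasted DT mice it ran from 91.0 through a median of 110 to 142 CPM, and in refed DT mice from 215 through 309 to 498 CPM. The fasted values were tight and no refed mouse came down to them. The log2 fold change was 2.02 ± 0.19 in control mice (edgeR adjusted p = 7.31e-07) and 1.57 ± 0.17 in DT mice (edgeR adjusted p = 2.23e-06), or 1.54 in DT mice without mouse 13.

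Hsp90ab1, on chromosome 17 (chr17:45567778-45573261, GRCm38.p6), stood at 341, 319, 329, 405 and 386 CPM in fasted control mice and 318 to 362 CPM in fasted DT mice (median 337). After refeeding it stood at 1058, 1207, 955, 916 and 874 CPM in control mice and at 515 to 1192 CPM in DT mice (median 750). Fasted and refed mice did not overlap under either treatment. Its log2 fold change was 1.49 ± 0.17 in control mice and 1.21 ± 0.15 in DT mice, with edgeR adjusted p of 4.39e-06 and 1.22e-05, and without mouse 13 it was 1.22 in DT mice.

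The Hsp90 co-chaperones were called higher as well, with Cdc37 in DT mice as the exception. Stip1, the adaptor that holds Hsp70 and Hsp90 together for client transfer, went from 46.4, 44.8, 36, 38.6 and 37.7 CPM in fasted control mice to 186, 211, 127, 148 and 106 CPM in refed ones. In DT mice it lay between 38.7 and 53.9 CPM when fasted (median 48.6) and between 72.1 and 200 CPM when refed (median 128), again without overlap. Its log2 fold change was 1.94 ± 0.22 in control mice and 1.47 ± 0.19 in DT mice, with edgeR adjusted p of 3.35e-06 and 1.62e-05, and 1.66 in DT mice without mouse 13.

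Chordc1, an Hsp90-binding protein whose promoter run is printed above, stood at 16.5, 14.4, 17.1, 21.5 and 13 CPM in fasted control mice and at 84.8, 94.5, 54.4, 55.7 and 44.6 CPM in refed ones. Fasted DT mice ran from 18.3 to 35.8 CPM (median 21.4) and refed DT mice from 47.3 to 81.3 CPM (median 58.0). The highest fasted value, in DT mouse 10, was still below every refed value. The log2 fold change was 2.02 ± 0.23 in control mice and 1.40 ± 0.20 in DT mice, with edgeR adjusted p of 4.19e-06 and 5.21e-05, and 1.52 in DT mice without mouse 13.

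Ahsa1, which stimulates the ATPase of Hsp90, was called higher in both treatments, by 1.53 ± 0.17 and 1.23 ± 0.16 on the log2 scale. Fkbp4, a peptidyl-prolyl isomerase of steroid receptor complexes, was higher by 1.05 ± 0.15 and 0.92 ± 0.14, and St13, an Hsp70-binding cofactor, by 0.78 ± 0.10 and 0.58 ± 0.09. The smallest change of the class was in Cdc37, which loads kinases onto Hsp90: 0.34 ± 0.11 in control mice, where it was called (edgeR adjusted p = 0.0204), and 0.25 ± 0.10 in DT mice, where it was not (edgeR adjusted p = 0.0599). Without mouse 13 Cdc37 was called in DT mice, at 0.40 (edgeR adjusted p = 0.000759). The call of Cdc37 in control mice was among 6 that did not hold when each library in turn was left out.

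Among the 7 Hsp70 genes only Hspa8 (chr9:40801276-40805202), the constitutive cytosolic Hsp70 that also uncoats clathrin vesicles, was called between fasted and refed mice within a treatment. It stood at 144, 229, 158, 201 and 166 CPM in fasted control mice and at 897, 1905, 998, 1254 and 787 CPM in refed control mice. Fasted DT mice ran from 150 through a median of 174 to 279 CPM, and refed DT mice from 603 through 877 to 1656 CPM. The lowest refed mouse was above the highest fasted mouse by a wide margin under both treatments. The difference was 6.51-fold in control mice (log2 2.702 ± 0.27, edgeR adjusted p = 1.75e-06) and 5.35-fold in DT mice (log2 2.42 ± 0.25, edgeR adjusted p = 7.8e-07). Without mouse 13 the log2 value in DT mice was 2.60.

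The stress-inducible Hsp70 genes Hspa1a and Hspa1b were not called. Hspa1a stood at 12.7, 14.4, 18.8, 65.2 and 29.6 CPM in fasted control mice and at 37.9, 22.8, 9.35, 19.8 and 10.2 CPM in refed ones. Hspa1b stood at 16.9, 23.0, 25, 121 and 55.5 CPM and at 75.8, 36.9, 17.5, 40.3 and 17.1 CPM in the same mice. Mouse 4 was far above the other fasted controls for both genes, and fasted and refed values overlapped. In DT mice Hspa1a ran from 8.13 to 36.7 CPM fasted and from 11 to 28.4 CPM refed, and Hspa1b from 11 to 54.9 CPM and from 16.5 to 43.2 CPM.

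The log2 fold changes of Hspa1a were -0.49 ± 0.46 in control mice and -0.13 ± 0.42 in DT mice, and those of Hspa1b -0.37 ± 0.52 and 0.16 ± 0.48, with edgeR adjusted p between 0.487 and 0.851. Without mouse 4 the control values became 0.11 for Hspa1a and 0.34 for Hspa1b, still not called. The 2 genes are near-identical copies on chromosome 17, so the counting could split their reads, and each is uncertain on its own. Dnajb1, the class B J-domain partner of inducible Hsp70, was also highest in mouse 4, with 26.3, 37.9, 38.5, 109 and 54.7 CPM in fasted and 99.1, 93.1, 39.3, 66.6 and 48.0 CPM in refed control mice. Its log2 fold change was 0.38 ± 0.35 in control mice and 0.36 ± 0.32 in DT mice, with edgeR adjusted p of 0.486 and 0.451.

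The remaining Hsp70 genes were not called within a treatment. Hspa14, a ribosome-associated Hsp70, had log2 fold changes of -0.03 ± 0.13 and 0.14 ± 0.12, and Hspa2 of 0.48 ± 0.18 and 0.01 ± 0.16. Without mouse 13 Hspa2 was called in control mice, at 0.51 (edgeR adjusted p = 0.0127). The distant relatives Hspa12a and Hspa12b had values of -0.57 ± 0.25 and -1.02 ± 0.38 in control mice and -0.53 ± 0.23 and -0.49 ± 0.34 in DT mice. Averaged over treatment, both were called lower, with edgeR adjusted p of 0.0135 and 0.0231, and neither was called without mice 13 and 20 (edgeR adjusted p = 0.0635 and 0.0747). Hspa12b was also not called without fasted DT mouse 8 (edgeR adjusted p = 0.050025).

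**Figure D3:**
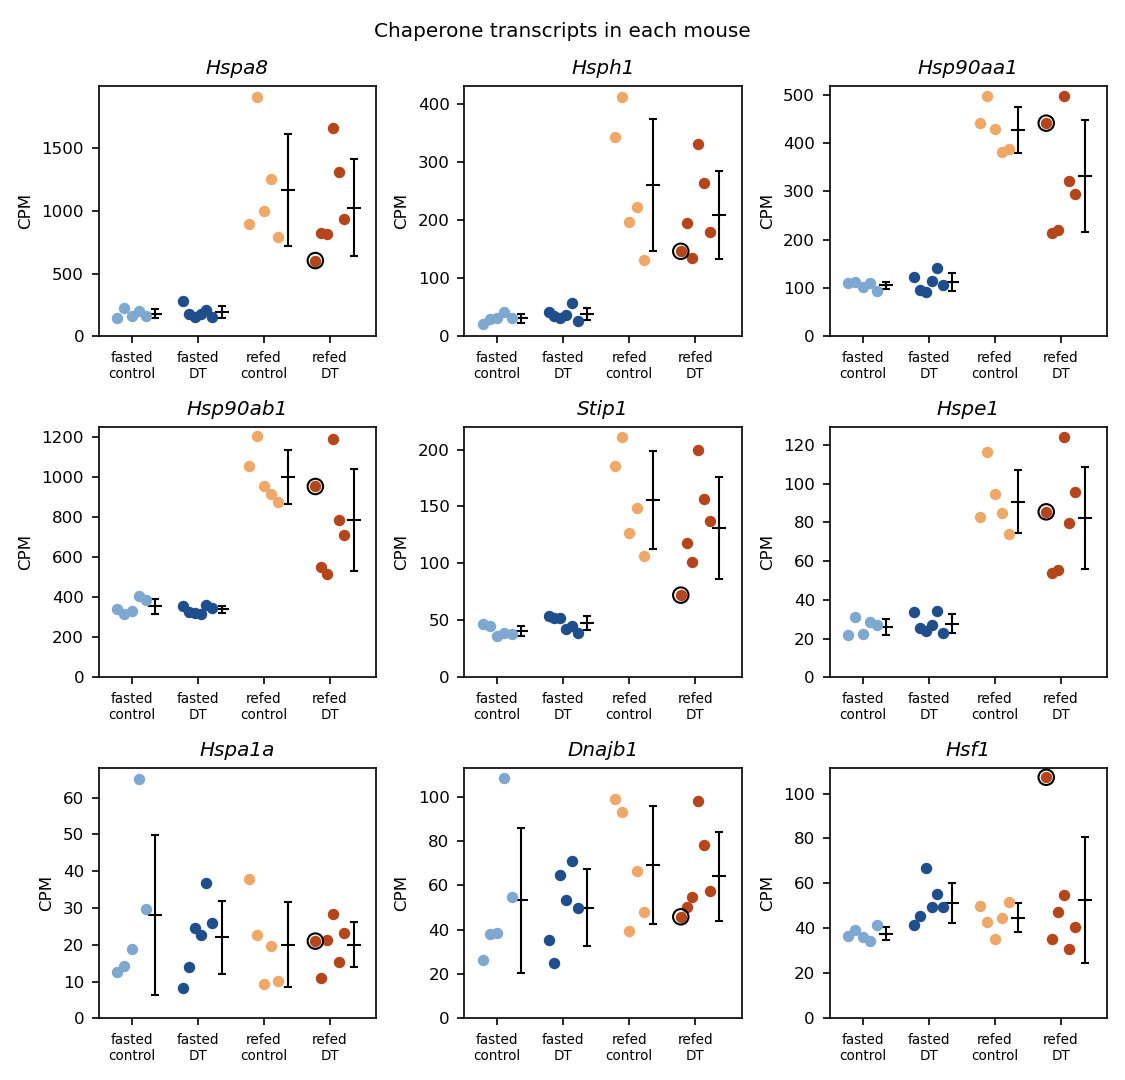
CPM of 9 chaperone genes in each mouse (points), with the group mean and SD beside them; axes start at 0 and differ between genes, and the ringed point is refed DT mouse 13. Hspa8, Hsph1, Hsp90aa1, Hsp90ab1, Stip1 and Hspe1 show refed mice above all fasted mice, whereas Hspa1a, Dnajb1 and Hsf1 show overlapping groups.

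The nucleotide exchange factors included the gene with the highest fold change of the set. Hsph1 (chr5:149616843-149636498), the Hsp110 protein that releases ADP from Hsp70, stood at 20.8, 30.5, 32.0, 42.7 and 31.6 CPM in fasted control mice and at 343, 412, 198, 223 and 131 CPM in refed ones. In DT mice it ran from 27.2 to 57.3 CPM when fasted (median 36.3) and from 135 to 332 CPM when refed (median 188). The refed mice were spread more widely than the fasted mice and were all above them. The difference was 8.29-fold in control mice (log2 3.05 ± 0.31, edgeR adjusted p = 1.99e-06) and 5.48-fold in DT mice (log2 2.45 ± 0.28, edgeR adjusted p = 3.35e-06). Without mouse 13 the log2 value in DT mice was 2.61.

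The other Hsp110 relatives rose less. Hspa4l was higher by 1.43 ± 0.23 in control mice and 1.26 ± 0.21 in DT mice, and Hspa4 by 0.90 ± 0.18 and 0.89 ± 0.16. Of the Bag proteins, which bind the ATPase domain of Hsp70, Bag3 couples it to autophagy and Bag2 restrains its ubiquitin ligase partner. Bag3 was higher by 1.24 ± 0.26 and 1.15 ± 0.23 and Bag2 by 1.08 ± 0.22 and 1.36 ± 0.21, with edgeR adjusted p between 6.83e-05 and 0.0013. Bag3 in refed DT mice lay between 13.3 and 20.9 CPM in 5 mice and at 41.3 CPM in mouse 13. Bag5 was higher by 0.40 ± 0.10 and 0.32 ± 0.09, and Bag1, Bag4 and Bag6 were not called.

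Bag1 was uneven between mice of the same group. It stood at 69.1, 73.3, 60.2, 22.3 and 10.3 CPM in fasted control mice, and at 19.2, 9.27, 5.61, 75.1, 65.0 and 71.9 CPM in fasted DT mice 6 to 11. In refed control mice it lay between 40.5 and 78.8 CPM, and in refed DT mice at 13.3 CPM in mouse 16 and between 57.1 and 72.9 CPM in the others. Low and high mice occurred under the same condition in 3 of the 4 groups, and the refeeding values were 0.50 ± 0.62 and 0.51 ± 0.57.

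The class A and B J-domain proteins are the general partners of cytosolic Hsp70. Of 11 genes, 4 were higher in both treatments: Dnaja1, Dnajb2, Dnajb4 and Dnajb5. Dnaja1, which works with Hspa8, stood at 57.9, 56.1, 52.2, 65.1 and 50.4 CPM in fasted and at 167, 160, 79.9, 101 and 87.0 CPM in refed control mice. In DT mice it ran from 51.6 to 62.5 CPM fasted and from 84.2 to 149 CPM refed. Fasted and refed mice were separate in both cases, with log2 fold changes of 1.08 ± 0.18 and 1.13 ± 0.17 and edgeR adjusted p of 0.000207 and 5.21e-05.

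Dnajb2 rose by 0.94 ± 0.13 and 0.96 ± 0.12 on the log2 scale, Dnajb4 by 0.80 ± 0.16 and 0.83 ± 0.15, and Dnajb5 by 0.98 ± 0.22 and 0.82 ± 0.20. Dnajb12, a J-domain protein anchored in the membrane of the endoplasmic reticulum with its J domain facing the cytosol, fell by 0.43 ± 0.13 in control mice and by 0.44 ± 0.12 in DT mice (edgeR adjusted p = 0.0171 and 0.00735). It was not called with no filter on low counts (edgeR adjusted p = 0.0886 and 0.0648), nor in control mice without fasted mouse 4 (edgeR adjusted p = 0.0734). Dnajb6, which holds a 3-unit element, had log2 fold changes of 0.30 ± 0.14 and 0.25 ± 0.13 that were not called within a treatment. Without mouse 13 Dnajb6 was called in both, at 0.33 and 0.45 (edgeR adjusted p = 0.00439 and 0.000251), and so was Dnaja2, at 0.26 and 0.41.

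Class C J-domain proteins share only the J domain and serve Hsp70 at particular sites. Here refeeding was accompanied by changes in both directions. Dnajc2, which acts at the ribosome, was the member of the class called higher in both treatments, by 0.42 ± 0.10 and 0.56 ± 0.09. Dnajc5, the cysteine string protein of secretory vesicles, was higher in control mice by 0.33 ± 0.08 (edgeR adjusted p = 0.00266), with 0.16 ± 0.07 in DT mice (edgeR adjusted p = 0.0973). Dnajc12, Dnajc21 and Dnajc25 were also called higher in control mice, with log2 fold changes of 0.77 ± 0.21, 1.45 ± 0.43 and 1.61 ± 0.44. They were not called in DT mice, where the values were 0.39 ± 0.19, 0.77 ± 0.39 and 0.99 ± 0.40. For Dnajc21 and Dnajc25 fasted and refed control mice overlapped. Among fasted control mice both genes were lowest in mice 4 and 5, which were also lowest for Bag1. The part of these mice in the differences was not tested. The call of Dnajc21 in control mice was lost when some single libraries were left out, and that of Dnajc25 was kept. Without mouse 13 Dnajc5 and Dnajc12 were called in DT mice too, at 0.25 and 0.62 (edgeR adjusted p = 0.00554 and 0.00109).

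Dnajc24 and Dnajc28 were lower after refeeding in both treatments. Dnajc24 serves the synthesis of diphthamide, the modified residue of elongation factor eEF2 that diphtheria toxin attacks. It stood at 39.0, 49.6, 45.0, 48.2 and 50.03 CPM in fasted and at 31.7, 21.6, 31.4, 35.8 and 33.6 CPM in refed control mice. Fasted DT mice ran from 46.4 through 51.4 to 57.1 CPM and refed DT mice from 27.3 through 29.9 to 44.0 CPM. The groups did not overlap, and the log2 fold changes were -0.59 ± 0.14 and -0.70 ± 0.12 (edgeR adjusted p = 0.00304 and 0.000306). DT and control mice differed by 0.16 ± 0.13 when fasted and 0.05 ± 0.13 when refed, neither called.

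Dnajc28 stood at 5.59, 4.36, 8.73, 8.19 and 6.45 CPM in fasted and at 4.22, 2.04, 2.91, 4.14 and 2.14 CPM in refed control mice, a fall of 1.10 ± 0.25 on the log2 scale. In DT mice the fall was 0.91 ± 0.23, and the edgeR adjusted p was 0.00259 and 0.00575. Dnajc9, a histone-binding J protein, was called lower in control mice (-0.35 ± 0.11, edgeR adjusted p = 0.0255), and its value in DT mice was -0.07 ± 0.10. Dnajc6 (auxilin, which uncoats clathrin vesicles with Hspa8), Dnajc13 (an endosomal J protein) and Dnajc4 were called lower in DT mice, with -0.55 ± 0.16, -0.39 ± 0.14 and -0.37 ± 0.11. The call of Dnajc13 was at the threshold (edgeR adjusted p = 0.0494) and was lost under 24 of 31 alternatives; without mouse 13 it was at -0.21 (edgeR adjusted p = 0.172). Without mice 13 and 20 Dnajc6 was at -0.32 and not called. The call of Dnajc4 was also lost when some single libraries were left out.

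TRiC is a barrel of stacked rings, each with 8 different subunits, that folds actin, tubulin and other proteins. In control mice all subunits except Cct5 rose, from 0.70 ± 0.15 for Cct4 to 1.47 ± 0.18 for Cct3, with Tcp1 at 1.00 ± 0.15 and Cct2 at 0.76 ± 0.14. In DT mice the same 7 rose, from 0.48 ± 0.13 for Cct2 to 0.98 ± 0.16 for Cct3, with Tcp1 at 0.82 ± 0.14. Without mouse 13 the DT values were 0.66 for Cct2, 1.17 for Cct3 and 1.01 for Tcp1. Cct3 stood at 61.3, 73.8, 59.8, 64.5 and 62.4 CPM in fasted and at 186, 236, 170, 160 and 142 CPM in refed control mice, with no overlap. In DT mice Cct3 ran from 59.7 to 101 CPM fasted and from 94.4 CPM, in mouse 13, to 219 CPM refed, so that the groups overlapped.

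Cct5 was the subunit not called within a treatment when all mice were included. It stood at 143, 138, 147, 147 and 151 CPM in fasted and at 186, 212, 177, 188 and 169 CPM in refed control mice. These values did not overlap, yet the log2 difference of 0.36 ± 0.15 was not called (edgeR adjusted p = 0.0961), and in DT mice it was 0.17 ± 0.14. Refed DT mouse 13 was at 88.3 CPM for Cct5, below every fasted mouse, and without it Cct5 was called in control and in DT mice, at 0.40 and 0.38 (edgeR adjusted p = 0.00142 and 0.00153). The average over treatment was called at 0.27 ± 0.10 (edgeR adjusted p = 0.0482).

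Among the mitochondrial chaperones, the Hsp60/Hsp10 chaperonin rose, the mitochondrial Hsp90 was not called, and the mitochondrial Hsp70 was called only without mouse 13. Hspd1 (Hsp60) stood at 70.3, 89.2, 78.7, 83.4 and 81.7 CPM in fasted and at 204, 228, 219, 200 and 176 CPM in refed control mice. Its lid Hspe1 (Hsp10), which shares the promoter run printed above, stood at 21.8, 31.0, 22.3, 28.8 and 26.8 CPM and at 82.9, 116, 94.9, 85.0 and 74.0 CPM in the same mice. Both genes kept fasted and refed mice apart, in control and in DT mice. In DT mice Hspd1 ran from 84.1 to 96.3 CPM fasted and from 144 to 246 CPM refed, and Hspe1 from 22.8 to 34.0 CPM and from 53.8 to 124 CPM.

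The log2 fold change of Hspd1 was 1.35 ± 0.12 in control mice, with the lowest adjusted p of the 76 genes (edgeR adjusted p = 2.31e-07), and 0.99 ± 0.11 in DT mice (edgeR adjusted p = 1.67e-06). For Hspe1 it was 1.79 ± 0.20 and 1.57 ± 0.18. Without mouse 13 the DT values were 1.07 for Hspd1 and 1.63 for Hspe1. Both genes have processed copies in the genome. The copies listed for Hspd1 held at most 131 counts over all libraries. Reads that match a gene and its copy equally could have been lost or split, so their levels are uncertain to that extent.

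Hspa9, the mitochondrial Hsp70, stood at 209, 230, 206, 244 and 255 CPM in fasted and at 271, 289, 262, 299 and 224 CPM in refed control mice, which overlapped. Its log2 fold change was 0.23 ± 0.18 in control mice and 0.21 ± 0.16 in DT mice (edgeR adjusted p = 0.385 and 0.374). Without mouse 13, whose Hspa9 level was 102 CPM, it was called in both treatments, at 0.27 in control mice (edgeR adjusted p = 0.0186) and at 0.44 in DT mice (edgeR adjusted p = 0.000284). Trap1, the mitochondrial Hsp90, had values of 0.23 ± 0.16 and 0.00 ± 0.14.

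The J proteins of mitochondria had small fold changes. Dnajc15, of the protein import motor, rose by 0.42 ± 0.14 and 0.45 ± 0.12. Dnaja3, the partner of Hspa9, rose by 0.55 ± 0.15 and Dnajc11 by 0.34 ± 0.11 in control mice, with values of 0.21 ± 0.13 and 0.23 ± 0.10 in DT mice that were not called. Without mouse 13 both were called in DT mice, at 0.39 and 0.35 (edgeR adjusted p = 0.00744 and 0.00459), and the difference between treatments was not called for either. Dnajc30 was called in DT mice at 0.54 ± 0.16, with its highest level, 18.8 CPM, in mouse 13, and was at -0.02 ± 0.18 in control mice. Without mouse 13 it was at 0.43 in DT mice and still called (edgeR adjusted p = 0.0145).

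The small heat shock proteins hold unfolded proteins without ATP. Hspb1 was near the detection limit, at 0.615 to 0.819 CPM in fasted and 0.802 to 3.04 CPM in refed control mice, and at 0 to 1.12 CPM in fasted and 0.594 to 3.47 CPM in refed DT mice. Fasted and refed mice overlapped, and 1 library had no Hspb1 read. Hspb1 was called in DT mice (1.91 ± 0.56, edgeR adjusted p = 0.0152) and not in control mice (1.30 ± 0.59, edgeR adjusted p = 0.122). When only the groups compared were fitted, this turned round. Hspb1 was then called in control mice (1.29, edgeR adjusted p = 0.0286) and not in DT mice (1.91, edgeR adjusted p = 0.0545). Hspb6, Hspb8 and Hspb11 had log2 fold changes between -0.05 and 0.40 and were not called.

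The heat shock factors themselves were not called within a treatment. Hsf1 stood at 36.7, 39.4, 36.3, 34.4 and 41.5 CPM in fasted and at 49.9, 42.9, 35.2, 44.4 and 51.8 CPM in refed control mice, which overlapped. In DT mice Hsf1 ran from 41.5 to 66.7 CPM fasted and from 30.9 to 107 CPM refed, the highest value being that of mouse 13. The log2 fold changes were 0.25 ± 0.24 and 0.03 ± 0.21, and the latter was -0.23 without mouse 13. Hsf2 had values of -0.50 ± 0.26 and -0.44 ± 0.23 and was called lower in the average over treatment (-0.47 ± 0.17, edgeR adjusted p = 0.0353). That call was lost under 15 of 30 alternatives, among them RLE scaling (edgeR adjusted p = 0.0536), no filter on low counts (edgeR adjusted p = 0.101) and leaving out fasted control mouse 4 (edgeR adjusted p = 0.114).

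**Figure D4:**
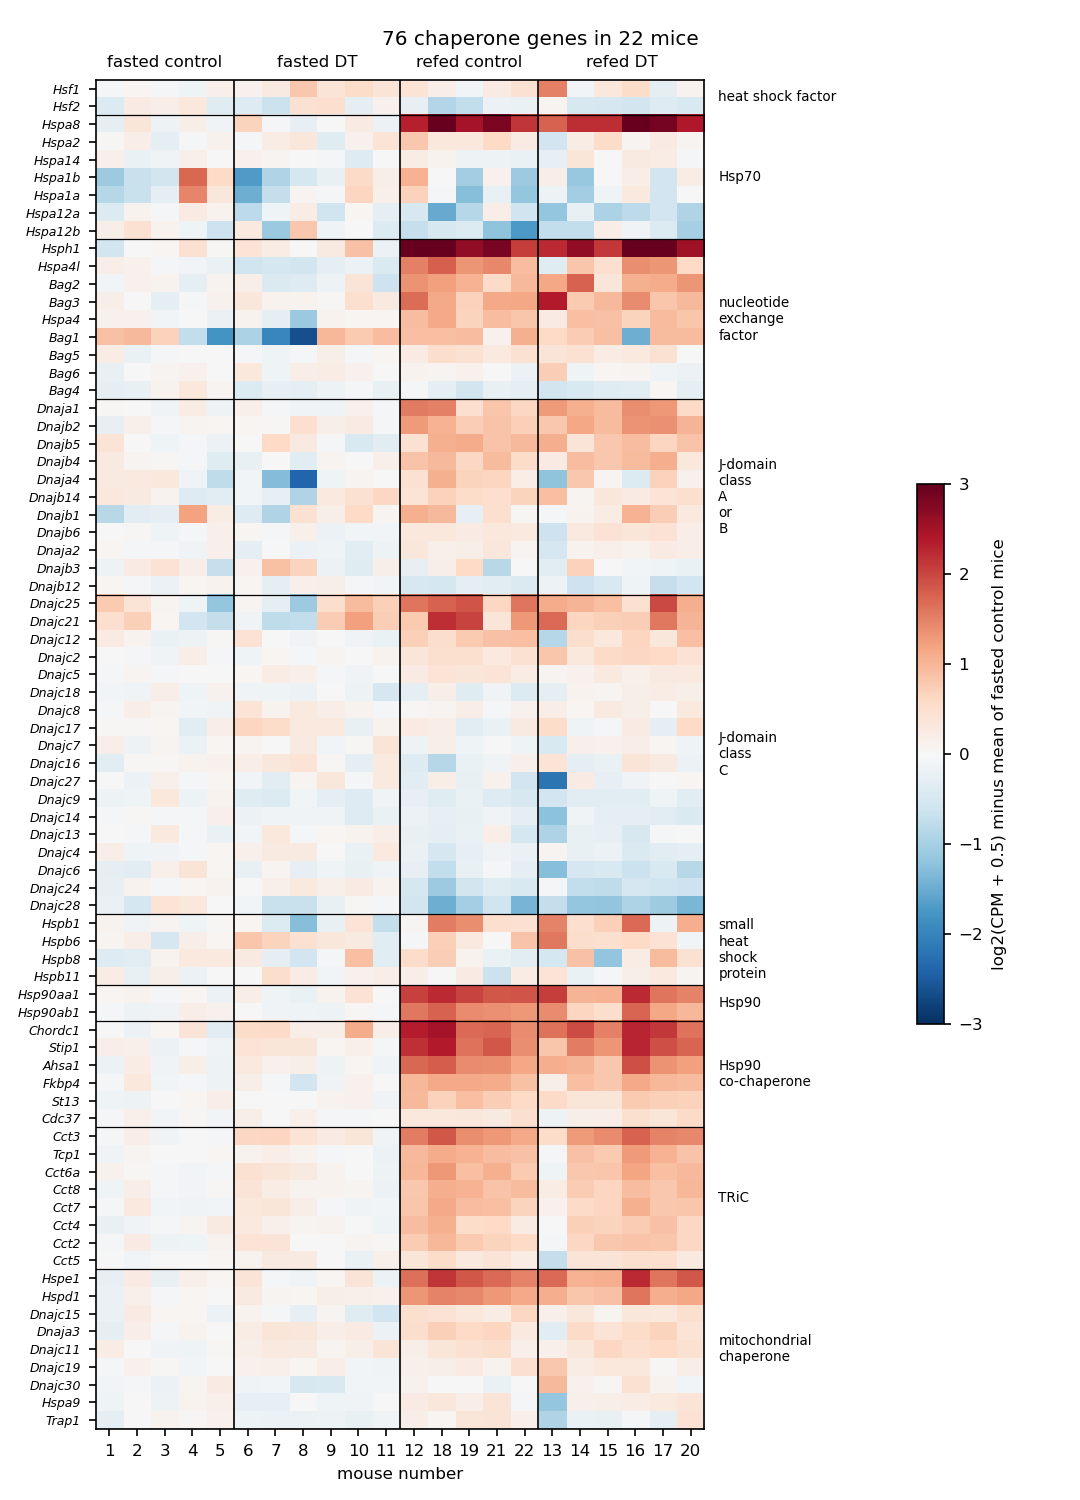
Level of each of the 76 genes in each of the 22 mice, as log2(CPM + 0.5) minus the mean of the fasted control mice, on a colour scale that ends at 3 in either direction; rows are grouped by role and ordered by the average refeeding effect, columns are mice. The rows of Hsph1, Hspa8 and Hsp90aa1 are red throughout the refed mice, the inducible Hspa1a and Hspa1b are lower or higher in single mice such as fasted control mouse 4, and Bag1 is low in 6 mice of 3 groups.

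The refeeding comparisons in control and in DT mice share no mouse, so their calls can be set against each other. Of the 36 genes higher in control mice, 29 were also higher in DT mice, which is 80.6% of the control list and 93.5% of the DT list. Over all genes the same shares were 64.1% and 64.8%. Of the genes that were lower, 3 were shared (Dnajb12, Dnajc24 and Dnajc28), 75% of the 4 in control mice and 50% of the 6 in DT mice. Over all genes the shares of lower calls were 61.3% and 55.9%. Called higher in control mice alone were Cdc37, Dnaja3, Dnajc5, Dnajc11, Dnajc12, Dnajc21 and Dnajc25, and in DT mice alone Dnajc30 and Hspb1. For none of these 9 was the difference between treatments called.

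Averaged over treatment, 52 genes were called, 42 higher and 10 lower, or 68.4%, against 38.9% of all tested genes (17.2% higher, 21.7% lower). The 10 lower genes were Dnajb12, Dnajc4, Dnajc6, Dnajc9, Dnajc13, Dnajc24, Dnajc28, Hsf2, Hspa12a and Hspa12b. Without mouse 13 Dnajc9 was at -0.13 and Dnajc13 at -0.19, and neither was then called.

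Markers of other cells moved alongside feeding. Summed over 10 acinar digestive enzyme genes, the medians were 4138 CPM in fasted and 10802 CPM in refed control mice, and 2136 and 7629 CPM in fasted and refed DT mice, with ranges of 113 to 12377, 1151 to 19443, 91.6 to 17644 and 66.9 to 30531 CPM. All 10 acinar genes had a log2 fold change above 0 in both treatments and none was called. Refed control mouse 12 and refed DT mouse 20 had the lowest acinar sums of their groups, 1151 and 66.9 CPM, and chaperone sums of 7715 and 6634 CPM, both above every fasted mouse. With the acinar level as a covariate 39 chaperone genes were called in control mice (36 higher) and 36 in DT mice (31 higher). Over all tested genes 3002 and 3095 were then called. The 9 immediate-early genes, which cell isolation can also raise, summed to medians of 608 CPM (control) and 560 CPM (DT) before refeeding. After it the medians were 360 CPM (control) and 467 CPM (DT). Nr4a1 went the other way, from a median of 9.71 to 33.2 CPM in control and from 6.34 to 64.5 CPM in DT mice. Of the 9 genes, 2 had a log2 fold change above 0 in each treatment. The part of these genes in the result was not tested.

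Removal of the other endocrine cells was accompanied by no called change of a chaperone gene. In fasted mice 0 of the 76 genes were called between DT and control, against 0.0284% of all tested genes, and in refed mice 0, against 0.0356%. Averaged over feeding, 0 were called, against 0.206%. At an unadjusted p below 0.05 there were 4, 5 and 7 of the 76 genes, beside 1172, 1410 and 1678 of the 14064 tested genes. DESeq2 and limma voom also called 0 of the 76 in each. Over all genes DESeq2 called 50, 86 and 186 and limma voom 4, 1 and 25, so few calls were made in any gene set. The median log2 fold change was 0.05 in fasted and -0.11 in refed mice, beside 0.01 and -0.0037 over all tested genes.

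The lowest p-values in fasted mice were those of Dnajc9 (-0.28 ± 0.11), Chordc1 (0.50 ± 0.21) and Cct3 (0.38 ± 0.17), with edgeR adjusted p of 0.482 to 0.551. In refed mice they were those of Hspa4l (-0.60 ± 0.21), Trap1 (-0.40 ± 0.15) and Dnajc6 (-0.40 ± 0.16), with edgeR adjusted p of 0.328 to 0.399. Hspa4l stood at 116, 142, 102, 111 and 77.4 CPM in refed control mice and ran from 31.7 CPM, in mouse 13, through 67.2 to 108 CPM in refed DT mice. These groups overlapped, and without mouse 13 the Hspa4l difference was -0.43. Trap1 lay between 40.9 and 52.0 CPM in refed control mice and between 20.7 CPM, in mouse 13, and 53.3 CPM, in mouse 20, in refed DT mice. Without mice 13 and 20 the Trap1 difference was -0.42 and was called (edgeR adjusted p = 0.0312).

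By class, all 8 TRiC subunits lay above 0 in fasted mice (median 0.12), and in refed mice the TRiC median was -0.13 with mouse 13 and 0.00065 without it, when 4 of the 8 lay above 0. Both Hsp90 genes lay below 0 in refed mice, with a median of -0.36, or -0.42 without mouse 13. The 6 co-chaperones had a median of -0.20 in refed mice and of -0.09 without mouse 13, when 1 of them lay above 0. No gene of these classes was called. Without mouse 13 the median over the 76 genes in refed mice was -0.05.

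**Figure D5:**
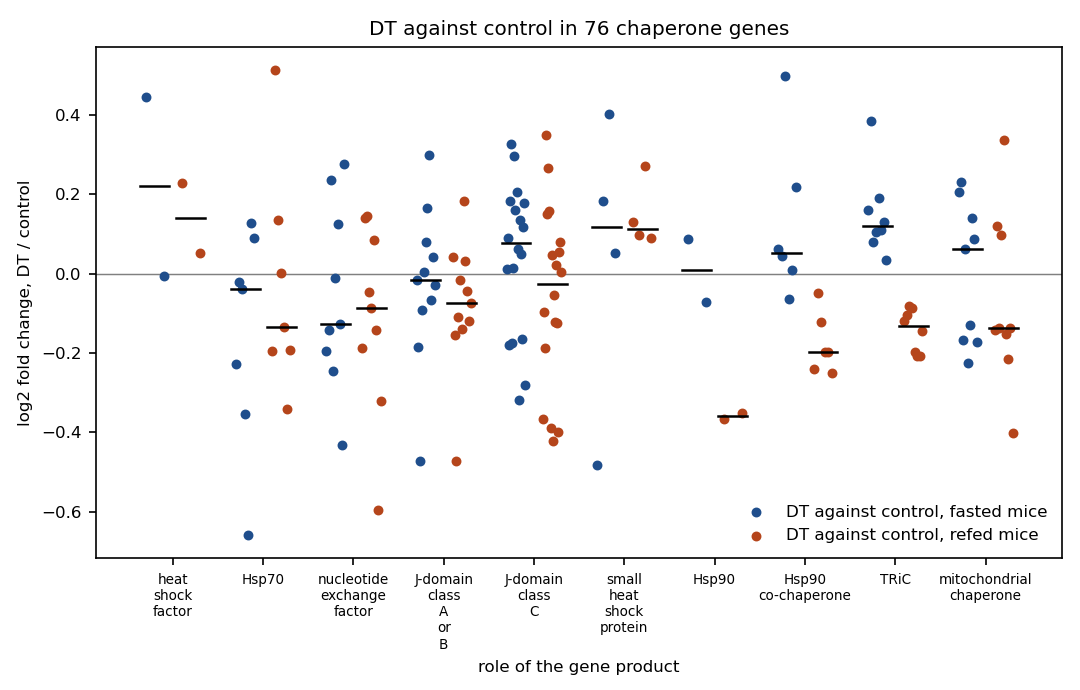
Log2 fold change of DT over control mice for each of the 76 genes, by role, in fasted mice (blue) and refed mice (red); black bars are class medians. No point passed the adjusted threshold, and all mice are included; with mouse 13 in the fit the Hsp90, co-chaperone and TRiC genes of refed mice lie below 0, and without it 4 of 8 TRiC genes lie above 0.

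The interaction, which tests whether the refeeding effect differed between DT and control mice, was called for 0 of the 76 genes, against 0.00711% of all tested genes. At an unadjusted p below 0.05 there were 4 of the 76 genes, beside 1004 of the 14064 tested genes. DESeq2 and limma voom called 0 of the 76, beside 21 (DESeq2) and 0 (limma voom) over all genes. The lowest p-values were those of Dnajc18 (0.44 ± 0.18), Dnajc30 (0.56 ± 0.24) and Hspd1 (-0.36 ± 0.16), with edgeR adjusted p of 0.611 to 0.675. For the genes with the highest fold change, the interaction was -0.60 ± 0.39 for Hsph1, -0.28 ± 0.35 for Hspa8 and -0.45 ± 0.25 for Hsp90aa1. The median over the 76 genes was -0.11, and -0.04 without mouse 13, beside -0.02 over all tested genes. A p that misses the threshold does not show that the refeeding effects were equal.

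Levels were also expressed per kilobase of exon, with the length taken as the union of all annotated exons of a gene. This union can exceed the transcript that is expressed, and it was 6370 bases for Cct3 and 3088 bases for Cct8. Ranks between genes are therefore approximate. On that scale Hsp90ab1 ranked first of the 76 in all 4 groups, at 119 CPM per kb in fasted and 334 CPM per kb in refed control mice. Hspa8 went from rank 5 (41.7 CPM per kb) to rank 2 (272 CPM per kb) and Hsp90aa1 from rank 11 (26.8) to rank 4 (109). Hsph1 went from rank 48 (4.34) to rank 14 (36). Hspa9 went from rank 3 in fasted control mice (53.1 CPM per kb) to rank 9 in refed ones (62.4 CPM per kb). In DT mice the ranks of Hsp90ab1, Hspa8 and Hsp90aa1 after refeeding were the same, 1, 2 and 4.

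Mice of a group differed more after refeeding. The median coefficient of variation of the 76 genes in CPM went from 12.3% to 15.9% in control mice and from 13.8% to 23.2% in DT mice, whose refed group holds mouse 13. No test of these medians was made.

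Chaperone genes outside the set were compared by a second list of 37 genes, all of them tested, which holds prefoldin subunits, further Hsp90 and Hsp70 partners and mitochondrial proteases. In control mice 10 were higher and 2 lower after refeeding, with a median of 0.22, against 10.9% higher and 12.3% lower of all tested genes. In DT mice 12 were higher and 2 lower, with a median of 0.24, against 10.8% and 13.5%. Ptges3 (p23, which stabilises client-bound Hsp90) rose by 0.85 ± 0.10 and 0.66 ± 0.09, and Hspbp1 (a nucleotide exchange factor of Hsp70) by 1.18 ± 0.15 and 0.82 ± 0.14. Ppid, an Hsp90-binding isomerase, rose by 0.92 ± 0.13 and 0.66 ± 0.12. Fkbp8, a membrane-anchored relative of Fkbp4 on mitochondria, fell by 0.30 ± 0.09 and by 0.43 ± 0.08.

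Of the 7 genes of the endoplasmic reticulum that the rule sets aside, 5 were higher in each treatment, against 10.9% (control) and 10.8% (DT) of all tested genes, with medians of 0.99 in control and 0.59 in DT mice. Hspa5, the Hsp70 of that compartment, went from 1050.4 ± 263 CPM (SD, n = 5) to 2264 ± 234 CPM (SD, n = 5) in control mice, a log2 change of 1.11 ± 0.21. In DT mice the change of Hspa5 was 0.59 ± 0.19 (edgeR adjusted p = 0.0288). Fasted DT mice ran from 840 to 1764 CPM. Refed DT mouse 13 was at 1030 CPM, and the other refed DT mice lay between 1840 and 2705 CPM. The DT values of these 7 genes include mouse 13 and are not given without it. The interaction was called for 0 of the 7.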

How the data were processed

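RNA from sorted β-cells of 22 mice was measured, 1 library per mouse, made per the labels with a SMARTer low-input cDNA kit and Nextera XT and sequenced as single-end reads. The authors deposited 1 table of whole-number read counts per gene symbol, not normalized. The genome build GRCm38.p6 and the tools HTSeq 0.9.1, STAR 2.7.2b and DESeq2 1.28.1 are named, with no order or role, in the submitters' processing notes. The annotation release and strand setting are not given in the sources used here. Reads carried no molecular identifiers, so overlapping, antisense and near-identical genes are uncertain, and amplification adds to the spread.

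The 14064 genes that passed filterByExpr by group were fitted in edgeR 4.0.16 (R 4.3.3) with TMM scaling, 1 coefficient per group and robust quasi-likelihood F tests. The 7 comparisons were DT against control when fasted, when refed and averaged, refed against fasted in control, in DT and averaged, and the interaction. Adjustment was over all tested genes. Standard errors come from the F statistic. The fit was tested on simulated data. No 2 libraries held identical values, and their correlations ran from 0.847 to 0.967. Promoter windows and gene positions come from RefSeq, and exon lengths from GENCODE.

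The members and lists were chosen with earlier results of these data known. Named genes were 23 anchor genes, up to 10 called genes per direction and the 5 with the lowest p, or the 3 with the lowest p where none was called, genes with a searched motif, and up to 6 called genes of the second list. Other genes were named after their values were seen. Alternatives were RLE scaling, scaling without the insulin genes, DESeq2 1.42.0, limma 3.58.1 voom, other count filters, an acinar covariate, only the groups compared, and leaving out libraries.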

Additional observations from a re-analysis of the deposited data

Results flagged for a closer look

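In 96 groups of 5 or 6 mice, for 23 anchor genes and the sum over the 76, the highest or lowest mouse was compared with the gap and range of its group, and 9 stood apart, where chance gives about 1 in 20. Of these, 5 were in refed DT mouse 13, the library with the highest insulin share. Its levels were high for Hsf1 (107 CPM, others 30.9 to 55 CPM), Hsf2 (5.57 CPM, others 3.42 to 3.91 CPM) and Bag3 (41.3 CPM, others 13.3 to 20.9 CPM). They were low for Cct2 (48.5 CPM, others 77.9 to 92.3 CPM) and Hspa9 (102 CPM, others 254 to 297 CPM).

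The other 4 were in different mice. Chordc1 was at 35.8 CPM in fasted DT mouse 10, with the others at 18.3 to 24.4 CPM. Fkbp4 was at 187 CPM in fasted control mouse 2, with the others at 133 to 145 CPM. Hspd1 was at 246 CPM in refed DT mouse 16, with the others at 144 to 181 CPM. Trap1 was at 32.3 CPM in fasted control mouse 1, with the others at 40.1 to 43.1 CPM.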

How the results depend on the processing

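Counts of called chaperone genes stayed within 1.5 times of the reported ones under every alternative for the refeeding comparisons. With 1 library left out at a time they ran from 37 to 47 in control mice, from 35 to 47 in DT mice and from 48 to 54 for the average, and from 0 to 0 for the DT comparisons and the interaction. The other alternatives gave 36 to 48, 33 to 45 and 48 to 54. Without refed DT mice 13 and 20, 1 gene, Trap1, was called lower in DT than in control mice when refed, and 1, also Trap1, in the average over feeding. Of the 40 and 37 genes called, 34 and 35 were called in every fit that left out 1 library, and 34 and 31 under every alternative. Those lost were mostly small changes, such as Cdc37, Dnajc9 and Dnajc13.

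Direction turned for 4 genes that were not called, and the cause was not tested. With 1 library left out at a time, refeeding in control mice ran from -0.86 to 0.11 for Hspa1a and from -0.79 to 0.34 for Hspa1b, above 0 only without fasted mouse 4. In DT mice it ran from -0.23 (without mouse 13) to 0.15 for Hsf1, from -0.29 to 0.073 for Hspa1a, from -0.0031 to 0.41 for Hspa1b and from -0.15 (without mouse 20) to 0.19 for Trap1. Hsf1 was at -0.12 with limma voom and -0.21 without mice 13 and 20, Hspa1a at 0.078 with the acinar covariate, and Trap1 at -0.019 with limma voom and -9.9e-05 with only the 2 groups. Of 2046 gene values with 1 library left out, 1983 kept direction and call, as did 766 of 810 under the other alternatives. Scaling moved the median of all genes by at most 0.06.

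No paired analysis was possible because every mouse number occurs in 1 group. Genes at low depth, such as Hspb1 with 0 to 86 counts per library, allow no firm statement.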

Other observations

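Ubqln1, Ubqln2 and Bag1 were low in the same 6 mice, genes chosen after their values were seen. Ubqln1, a ubiquitin-binding shuttle protein of the second chaperone list, lay between 11.7 and 27.1 CPM in fasted control mice 4 and 5, fasted DT mice 6, 7 and 8 and refed DT mouse 16, and between 85.8 and 205 CPM in the other mice. Bag1 lay between 5.61 and 22.3 CPM in the same 6 mice and between 40.5 and 78.8 CPM in the others. Dnaja4, a cytosolic class A J protein, did not follow this split. It was lowest in fasted DT mice 7 and 8, at 19.6 and 9.10 CPM, but stood at 45.6 CPM in fasted control mouse 4 and at 21 CPM in refed DT mouse 13, whose Bag1 level was 57.1 CPM. No test of this pattern was made.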
